A study of Mus musculus with 9 samples.

Results

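The interferon regulatory factors (IRFs) are transcription factors that switch on interferon genes and carry out part of the response to interferon. The 8 members described here, Irf1, Irf2, Irf3, Irf4, Irf5, Irf7, Irf8 and Irf9, were taken by gene symbol from a table of read counts for 21935 mouse genes. All 8 were found in the table and all 8 passed the filter on low counts that left 14069 genes to test. Kidney RNA was sequenced from 3 groups of C57BL/6 mice with 3 libraries in each. The control group (Con) was wild type (WT) and received 0.5 ml of saline, although its treatment field in the labels reads none. The second group was WT with pristane-induced lupus (PIL), made with 0.5 ml of pristane, a hydrocarbon oil that leads to lupus-like autoimmunity after injection into the peritoneal cavity. The third group carried the genotype GSDMD-/-, written Gsdmd-/- here. Its treatment field also reads none, while the study's methods describe pristane-treated Gsdmd-/- mice. In every group the injection was given at 4 weeks of age and the kidneys were taken 31 weeks later. The deletion removes gasdermin D, a pore-forming protein of inflammatory cell death, from the whole animal and not from one cell type. Nothing in the sources used here states that the libraries of a group are from different mice, so p-values measure only the spread between these libraries, which may be technical.

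IRFs share a DNA-binding domain that recognises repeats of the bases GAAA. IRF3, IRF5 and IRF7 lie latent in the cytoplasm until nucleic acid sensors or Toll-like receptors lead to their phosphorylation, and they then turn on type I interferon genes. IRF9 joins STAT proteins after the interferon receptor has fired, and this complex, called ISGF3, activates interferon-stimulated genes at a sequence named the interferon-stimulated response element (ISRE). IRF1 is induced by interferon-γ through a sequence named GAS, and IRF2 binds many of the same promoters. IRF4 and IRF8 act mainly in blood cells, where IRF8 shapes macrophages and dendritic cells and IRF4 drives plasma cells. Variants near IRF5 are linked to human lupus. Because phosphorylation sets the activity of several members, transcript levels are not a measure of that activity.

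The members lie apart in the genome, on mouse build GRCm38 (mm10), and all are protein-coding. Irf1 (ENSMUSG00000018899) is at chr11:53770014-53778374, Irf2 (ENSMUSG00000031627) at chr8:46739732-46847458, Irf3 (ENSMUSG00000003184) at chr7:44997648-45002848 and Irf4 (ENSMUSG00000021356) at chr13:30749226-30766976. Irf5 (ENSMUSG00000029771) is at chr6:29526625-29541871, Irf7 (ENSMUSG00000025498) at chr7:141262706-141266481, Irf8 (ENSMUSG00000041515) at chr8:120736358-120756694 and Irf9 (ENSMUSG00000002325) at chr14:55603571-55610030. Irf7 is on the minus strand and the other members are on the plus strand. Irf4 was the only member whose span overlapped no other annotated gene. Irf3 overlaps Bcl2l12, Irf5 overlaps Tnpo3, Irf7 overlaps Phrf1 and Irf1 overlaps Gm17334, each on the opposite strand. Irf9 shares its strand with the overlapping Rnf31 and Irf8 with Gm20388, and Irf2 holds antisense transcripts. The strand setting of the counting is not stated, so reads from these shared stretches cannot be assigned with certainty.

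The start sites of 3 members carry, within the stretch from 250 bases before to 50 bases after the start, letters that match one of the motifs through which interferon signals. The RefSeq promoter windows (GRCm38.p6) of all 8 members were searched on both strands for the ISRE core (GAAA, any 2 bases and GAAA again) and for the GAS letters TTCNNNGAA. The stretches are shown because they place Irf1, Irf2 and Irf8, but not the other members, among possible readers of interferon signals by these letters. The matched letters are in capitals.
Irf1 GAS, bases -90 to -82, chr11:53769909-53769947, plus strand: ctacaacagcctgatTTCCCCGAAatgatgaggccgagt
Irf2 ISRE core, bases -241 to -232, chr8:46739495-46739528, plus strand: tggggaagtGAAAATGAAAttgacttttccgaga
Irf2 GAS, bases -224 to -216, chr8:46739506-46739544, plus strand: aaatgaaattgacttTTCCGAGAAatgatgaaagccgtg
Irf8 GAS, bases -171 to -163, chr8:120736172-120736210, plus strand: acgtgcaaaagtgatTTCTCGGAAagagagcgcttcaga
Irf8 GAS, bases -153 to -145, chr8:120736190-120736228, plus strand: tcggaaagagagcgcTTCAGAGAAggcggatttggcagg
The matches of Irf2 do not overlap each other, nor do those of Irf8, although the printed stretches do. The ISRE core stood in 3.99% of the 27025 genes with a window, in 12 of 24 listed ISGF3 target genes and in 1 of the 8 IRFs. GAS letters stood in 9.55% of all genes, in 6 of those 24 target genes and in 3 of the 8 IRFs. A match of letters is no evidence of binding, and no match says only that the letters are not in this window.

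Library totals ran from 13311063 to 16299328 counts. Gsdmd stood at 1.61 to 2.06 CPM (counts scaled to library size; 24 to 30 counts) in the Gsdmd-/- libraries, below every other library. Transcripts of 4 Y-linked genes (Uty, Kdm5d, Ddx3y and Eif2s3y) summed to 136.3 to 208.5 CPM in Con and to 0 counts in all other libraries, although the labels give every mouse as female. Any difference between Con and another group therefore cannot be told apart from this difference between the animals. On the first principal component, with 41.7% of the variance, PIL 1 lay at 84.1, PIL 2 at 49.7 and PIL 3 at -0.13, beside the Gsdmd-/- libraries at -20.9 to -12.2. Kidney tubule markers (6 genes, none at 0) summed to 6441 CPM in PIL 1, to 9366 and 12932 CPM in PIL 2 and PIL 3, and to 10447 to 12771 CPM in the other libraries.

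Levels per gene length, as the deposited FPKM, set the order of the family within a group. In Con the mean was highest for Irf7, at 34.0 ± 46.5 FPKM (SD, n = 3), followed by Irf3 at 17.2 ± 3.59 FPKM, Irf9 at 9.26 ± 5.49 FPKM, Irf1 at 6.55 ± 1.25 FPKM and Irf5 at 6.504 ± 1.22 FPKM. Irf8 at 3.27 ± 0.20 FPKM, Irf2 at 2.63 ± 0.30 FPKM and Irf4 at 0.23 ± 0.27 FPKM closed the order. The SD of Irf7 was larger than its mean, and Irf1 and Irf5 did not differ beyond their spread. In PIL the mean of Irf3 was highest (21.8 ± 5.20 FPKM) and Irf7 followed at 18.3 ± 10.4 FPKM, within that spread. Next came Irf5 at 12.0 ± 4.61 FPKM, Irf1 at 9.35 ± 5.19 FPKM, Irf9 at 8.75 ± 2.51 FPKM and Irf8 at 7.11 ± 2.46 FPKM, each within the spread of its neighbour. Irf2 at 2.99 ± 0.42 FPKM and Irf4 at 1.65 ± 1.32 FPKM were again lowest. In Gsdmd-/- Irf3 stood alone at 16.0 ± 0.57 FPKM, above Irf5 at 7.46 ± 1.29 FPKM. The ranges of Irf9 (4.74 ± 0.57 FPKM), Irf7 (4.54 ± 0.70 FPKM), Irf1 (4.39 ± 0.89 FPKM) and Irf8 (4.19 ± 0.13 FPKM) overlapped, although the other means lay beyond the narrow SD of Irf8. All of them stood above Irf2 (2.50 ± 0.06 FPKM) and Irf4 (0.46 ± 0.13 FPKM). Irf3 was thus the first or the second of the family in each group and Irf4 the last.

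**Figure D1:**
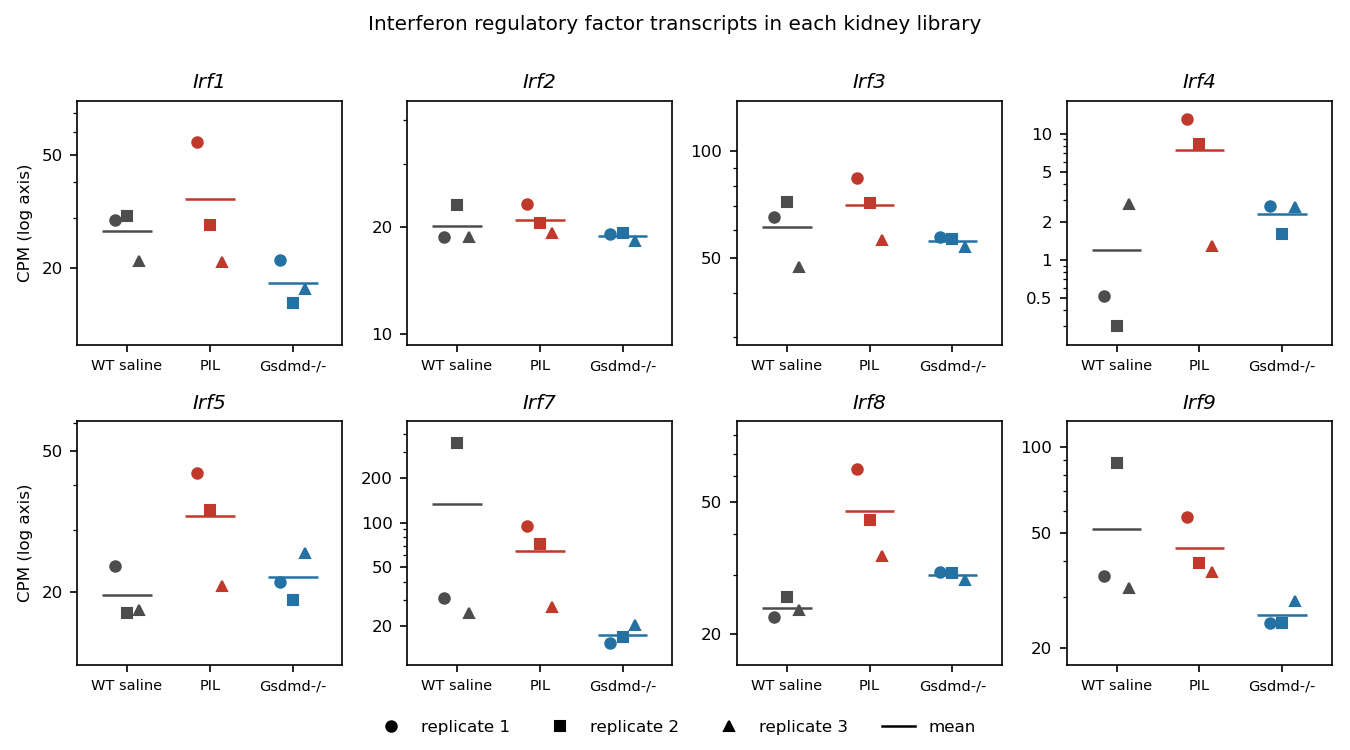
Level of each IRF transcript in CPM (counts scaled to library size, logarithmic axes that differ between panels) in the 3 WT saline (Con), 3 PIL and 3 Gsdmd-/- libraries, with the replicate number as the marker shape and the group mean as a line. Con 2 stands above all other libraries for Irf7 (346 CPM) and Irf9 (87.7 CPM), and within PIL replicate 1 is highest and replicate 3 lowest for each of the 8 genes.

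Pristane in WT kidney was compared with saline first, to see which IRF transcripts differ in lupus-like disease. Of the 8 members only Irf8, the factor of macrophages and dendritic cells, rose in PIL over Con by the call used (edgeR quasi-likelihood test, Benjamini-Hochberg adjusted p under 0.05 over 14069 genes). By the same call 7.62% of all genes tested differed in this comparison, 4.48% higher and 3.14% lower in PIL. Irf8 was also the only member whose groups did not overlap, against 25.2% of all genes. Unadjusted p-values were under 0.05 for 3 members, where 27.6% of all genes had one. The median log2 fold change was 0.29 over the members and 0.01 over all genes, with 6 members positive and 2 negative.

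Irf8 stood at 22.5, 25.8 and 23.6 CPM in Con 1, 2 and 3, at 62.8, 44.1 and 34.5 CPM in PIL 1, 2 and 3, and at 30.7, 30.4 and 29.0 CPM in the 3 Gsdmd-/- libraries. Each PIL library was above each Con library, and the Con values lay close together. The fold change was 1.97, or 0.98 on the log2 scale (SE 0.19, 95% interval 0.54 to 1.41, adjusted p = 0.0203). With DESeq2 and with limma-voom Irf8 was called too. It lost the call without Con 1 (adjusted p = 0.0853), without Con 3 (0.0579), without PIL 2 (0.0620) and when only the 6 libraries of both groups were fitted (0.0891), with log2 values of 0.93, 0.96, 1.03 and 0.97.

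Transcripts of macrophages were higher in PIL too, but the likeness to Irf8 was not particular to them. Pearson's r between Irf8 and summed markers, on the log2 scale over 9 libraries, was 0.87 for macrophages. It was 0.92 for plasma cells, 0.91 for conventional dendritic cells and 0.88 for B cells. Lower values were found for T and NK cells (0.62), neutrophils (0.39) and plasmacytoid dendritic cells (-0.03). The value for plasma cells rests largely on Jchain, which made up 539, 681 and 81.8 CPM of 637, 751 and 111 CPM in PIL 1, 2 and 3. Of 13 macrophage markers 8 were called higher in PIL than in Con and none lower, with a median log2 fold change of 1.80. Among them were Cx3cr1, the fractalkine receptor (2.00, adjusted p = 0.0149), Cd68, a lysosomal glycoprotein (2.27, 0.0174), and Adgre1, which encodes F4/80 (1.72, 0.0287). The markers summed to 177 to 447 CPM in Con, 384 to 1340 CPM in PIL and 247 to 362 CPM in Gsdmd-/-, and none was at 0 in any library. Per 100 CPM of these markers Irf8 stood at 5.76 to 13.3 CPM in Con, 4.30 to 8.98 CPM in PIL and 8.03 to 12.4 CPM in Gsdmd-/-, so that relative to the markers it was not higher in PIL. In whole-kidney RNA more cells of a type and more RNA per cell cannot be told apart. The 8 conventional dendritic cell markers summed to 22.5 to 27.1 CPM in Con and 35.7 to 50.02 CPM in PIL, and 1 of them was called (Batf3). Plasmacytoid dendritic cell markers were sparse in every group (2.03 to 4.56 CPM over 4 genes, with Siglech at 0 in Con 1). The part of these cells in the Irf8 difference was not tested.

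Genes known as IRF8 targets in myeloid cells lay in the same direction. Of 8 listed, 7 were tested, 3 were called higher in PIL than in Con and all 7 had positive values, with a median log2 fold change of 1.14. The called genes were Cybb, the catalytic subunit of the phagocyte oxidase (1.46, SE 0.31, adjusted p = 0.0261), the monocyte factor Klf4 (1.14, SE 0.25, 0.0283) and Naip5, a sensor of bacterial flagellin (1.39, SE 0.36, 0.0497). Naip2, its relative, had 0.89 (adjusted p = 0.0921). These genes are also transcribed in macrophages at large. Of 13 DNA-binding partners and cofactors of IRFs 1 was called, Batf3, an AP-1 factor that acts with IRF8 in dendritic cells (1.54, SE 0.39, adjusted p = 0.0449). Spi1, which encodes PU.1 and pairs with IRF4 and IRF8 on DNA, had a log2 fold change of 2.02 (SE 0.55, adjusted p = 0.0557), with 8.09, 13.2 and 5.76 CPM in Con against 62.9, 34.9 and 11.3 CPM in PIL. PIL 3 lay below Con 2 for Spi1. Batf, which joins IRF4 in lymphocytes, had 2.00 (adjusted p = 0.0739), and the partners together a median of 0.61.

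Irf4, the plasma cell factor, was the least abundant member. It had 7, 4 and 41 counts in Con, 231, 138 and 17 counts in PIL and 39, 21 and 39 counts in Gsdmd-/-, which are 0.51, 0.30 and 2.78 CPM, 13.0, 8.23 and 1.28 CPM, and 2.67, 1.59 and 2.61 CPM. PIL 1 and PIL 2 were far above all other libraries, while PIL 3 was below Con 3. The log2 fold change of PIL over Con was 2.63 with a wide 95% interval of 0.63 to 4.62, and it was not called (adjusted p = 0.0979). DESeq2 called it (2.63, adjusted p = 0.0171), as did limma-voom (3.65, 0.00523) and the edgeR fit without PIL 3 (3.11, 0.0161).

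Plasma cell and B cell markers were high in the same libraries as Irf4. The 7 plasma cell markers summed to 28.7 to 41.9 CPM in Con and to 637, 751 and 111 CPM in PIL 1, 2 and 3, with 58.4 to 119 CPM in Gsdmd-/-. Of the 6 that were tested 2 rose in PIL, Jchain, the joining chain of secreted antibodies (log2 5.30, adjusted p = 0.01997), and the B cell coactivator gene Pou2af1 (4.76, 0.0135). The 7 B cell markers summed to 1.19 to 5.62 CPM in Con, 8.20 to 47.2 CPM in PIL and 2.196 to 9.05 CPM in Gsdmd-/-, and of 5 tested Cd79a and Cd79b, the signalling chains of the B cell receptor, were called higher. Tnfrsf17 was at 0 in Con 3, Ms4a1 in Con 2, Pax5 in Con 1 and Blk in Con 2 and Gsdmd-/- 2. Jchain alone made up 539, 681 and 81.8 CPM of the plasma cell sums in PIL 1, 2 and 3. Con 3 had 2.78 CPM of Irf4 but the lowest plasma cell sum of all libraries. Jchain stood there at 0.95 CPM, against 20.4 and 11.8 CPM in Con 1 and Con 2. The B cell sum of Con 3, 5.62 CPM, was the highest in Con. The part of these cells in the Irf4 values was not tested.

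Irf5, the lupus-linked factor downstream of Toll-like receptors, had 23.6, 17.4 and 17.8 CPM in Con, 43.4, 34.0 and 20.8 CPM in PIL and 21.3, 19.0 and 25.7 CPM in Gsdmd-/-. PIL 3 again lay among the Con values. The log2 fold change of PIL over Con was 0.74 (SE 0.25, 95% interval 0.17 to 1.32, adjusted p = 0.0999), which was not called. Irf5 was called by limma-voom (0.63, adjusted p = 0.00879) and by edgeR without PIL 3 (0.98, 0.00904), but not by DESeq2. Per 100 CPM of macrophage markers it stood at 3.89 to 10.0 CPM in Con, 3.24 to 5.43 CPM in PIL and 7.02 to 7.71 CPM in Gsdmd-/-.

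Irf7 is induced by interferon and then amplifies type I interferon production, and it was the most variable member in Con. Its values were 31.2, 346 and 24.6 CPM in Con, 95.1, 71.7 and 26.8 CPM in PIL and 15.3, 16.7 and 20.2 CPM in Gsdmd-/-. A single library, Con 2, was 11.1 times Con 1 and 14.1 times Con 3, and above every PIL library. The log2 fold change of PIL over Con was -1.05 (SE 0.89, 95% interval -3.05 to 0.95, adjusted p = 0.465). Without Con 2 it turned to 1.21 (adjusted p = 0.124), with PIL 3 still between Con 1 and Con 3. The direction of Irf7 under pristane is therefore not settled by these libraries.

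Irf9, the DNA-binding subunit of ISGF3, was likewise highest in Con 2. It had 35.5, 87.7 and 32.4 CPM in Con, 57.0, 39.4 and 36.8 CPM in PIL and 24.4, 24.4 and 29.1 CPM in Gsdmd-/-. Con 2 was 2.47 times Con 1 and 2.71 times Con 3. The log2 fold change of PIL over Con was -0.22 (SE 0.35, adjusted p = 0.705), and 0.38 without Con 2 (0.235), when all 3 PIL libraries lay above the remaining Con libraries.

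Stat2, which encodes a partner of IRF9, and the targets of ISGF3 were high in Con 2 as well. Stat2 was 2.07 and 2.79 times as high in Con 2 as in Con 1 and Con 3. Of 31 ISGF3 target genes measured, 29 had their highest value of all libraries in Con 2, as 11.0% of all genes tested did. Isg15, a ubiquitin-like modifier, stood at 48.3 CPM in Con 2 against 3.48 to 16.7 CPM elsewhere, and Ifit1, which binds viral RNA, at 95.1 CPM against 6.91 to 17.2 CPM. The 31 genes summed to 872, 2633 and 739 CPM in Con, 1228, 1027 and 817 CPM in PIL and 691 to 797 CPM in Gsdmd-/-. None of them was called in either direction in PIL against Con, with 5 positive and 26 negative values and a median log2 fold change of -0.48. Interferon transcripts themselves were nearly absent. No count in any library was found for 17 of the 20 interferon genes, Ifng had 0 to 3 counts per library, and Ifnk and Ifnl3 had 1 count each in a single library.

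**Figure D2:**
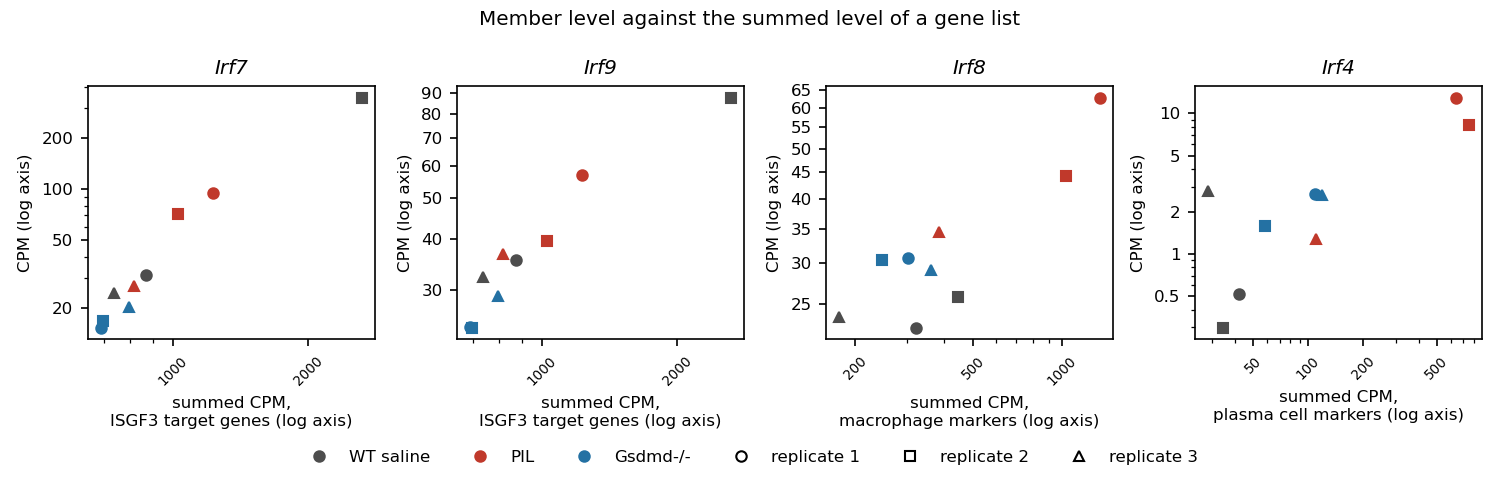
Level of Irf7 and Irf9 against the summed level of 31 ISGF3 target genes, of Irf8 against 13 macrophage markers and of Irf4 against 7 plasma cell markers, each in CPM on logarithmic axes, with 1 point per library coloured by group. Con 2 lies far to the upper right for Irf7 and Irf9 (target sum 2633 CPM), PIL 1 and PIL 2 lie at the upper right for Irf8 and Irf4, and Con 3 lies above the other Con libraries for Irf4 with the lowest marker sum.

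Irf3 is the constitutive factor that answers cytosolic DNA and RNA. It had 65.2, 71.8 and 47.2 CPM in Con, 83.9, 71.6 and 56.3 CPM in PIL and 57.5, 56.7 and 53.9 CPM in Gsdmd-/-. PIL and Con overlapped, with a log2 fold change of 0.20 (SE 0.18, 95% interval -0.20 to 0.61, adjusted p = 0.486). The interval leaves room for a difference of up to 0.61 and does not show equal levels.

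Sensors, adaptors and kinases that activate IRF3, IRF5 and IRF7 were measured for 25 genes, and 1 was called in PIL over Con. This was Ikbke, an IRF3 and IRF7 kinase (log2 1.13, SE 0.27, adjusted p = 0.0368), with 6.69, 6.94 and 7.93 CPM in Con and 20.9, 15.8 and 10.4 CPM in PIL. Its groups did not overlap. Ticam2, a Toll-like receptor 4 adaptor (2.30, adjusted p = 0.0515), Unc93b1, the chaperone of endosomal Toll-like receptors (1.29, 0.0608), and Sting1, the adaptor downstream of cGAS (1.74, 0.0725), were not called. Sting1 stood at 6.91, 10.8 and 3.52 CPM in Con and 40.2, 20.3 and 9.93 CPM in PIL, where PIL 3 was below Con 2. The 25 genes had a median log2 fold change of 0.17. Among 11 interferon receptor, JAK and STAT genes Il10rb, a shared chain of the receptors for interleukin-10 and interferon-λ, was called (0.60, SE 0.12, adjusted p = 0.0203). The interferon-γ receptor genes Ifngr1 (0.74, 0.0533) and Ifngr2 (0.87, 0.0521) were not. Of 10 negative regulators of IRFs and interferon signalling none was called in this comparison, where 4 of 10 values were negative.

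Irf1, the interferon-γ-induced activator, had 29.5, 30.3 and 21.1 CPM in Con, 55.2, 28.2 and 20.9 CPM in PIL and 21.3, 14.996 and 16.8 CPM in Gsdmd-/-. PIL 1 alone was above the Con range, and PIL 3 was just below it. The log2 fold change was 0.37 (SE 0.32, adjusted p = 0.482) and -0.14 without PIL 1 (0.783). Irf2, its more constitutive relative, was the steadiest member, with 18.7, 23.0 and 18.8 CPM in Con, 23.2, 20.5 and 19.2 CPM in PIL and 19.1, 19.2 and 18.2 CPM in Gsdmd-/-. The difference between PIL and Con was 0.05 (95% interval -0.24 to 0.35, adjusted p = 0.807).

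Of 20 genes in the table known as targets of IRF1 or IRF2, 18 were tested and none was called in PIL over Con, with 15 positive values and a median log2 fold change of 0.58. Ciita, the master regulator of MHC class II genes, had 1.28 (adjusted p = 0.0701) and the immunoproteasome subunit gene Psmb8 had 1.202 (0.207). Gsdmd is itself on this list, since IRF2 and IRF1 are known to drive its transcription in mouse macrophages. It had 7.06, 11.6 and 4.40 CPM in Con and 6.56, 20.1 and 10.7 CPM in PIL, with a log2 fold change of 0.70 (SE 0.43, adjusted p = 0.319). The library with the highest Irf2 and Irf1, PIL 1, had less Gsdmd than the other PIL libraries. This is a single library of whole-kidney RNA, and the part of Irf1 and Irf2 in the Gsdmd values was not tested.

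**Figure D3:**
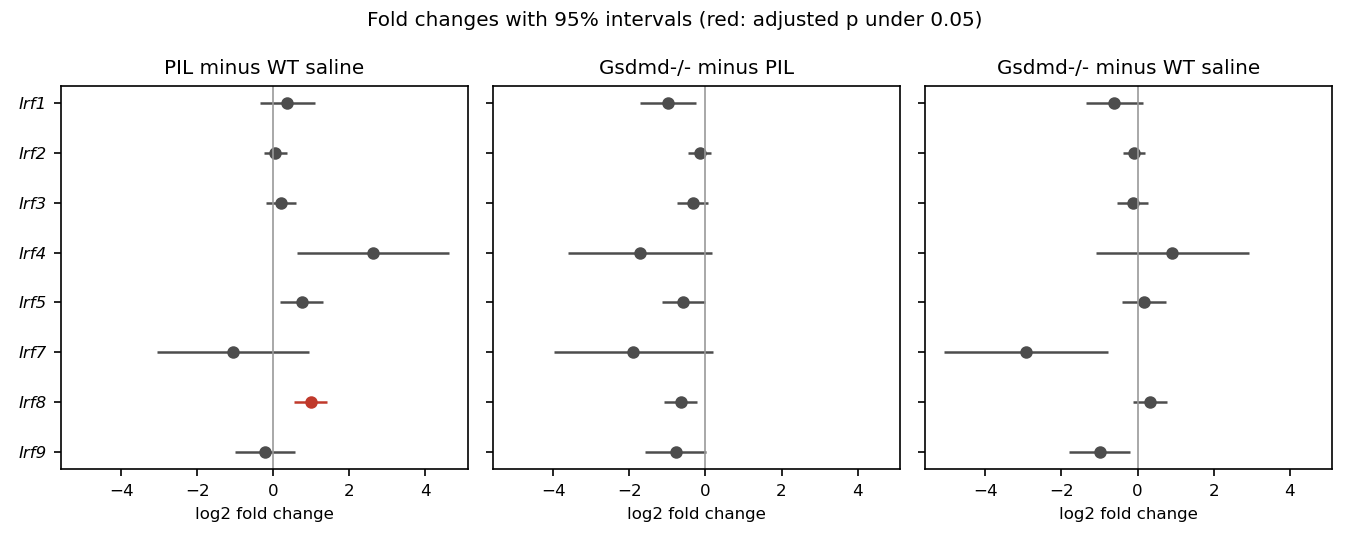
Log2 fold change of each member in the 3 comparisons, from the edgeR fit of all 9 libraries, with 95% intervals as bars and a red point where the adjusted p was under 0.05. Irf8 in PIL minus WT saline (0.98) is the only red point, all 8 members lie below 0 in Gsdmd-/- minus PIL, and the intervals of Irf4 and Irf7 are the widest.

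Gsdmd-/- kidneys were then compared with PIL kidneys. If the treatment label of none holds for the Gsdmd-/- mice, the missing gene and the missing pristane cannot be told apart in this comparison. No member was called, and neither was any other gene, so that 0% of the 14069 genes passed the threshold with edgeR. All 8 members had lower means in Gsdmd-/- than in PIL. Unadjusted p-values were under 0.05 for 3 members (Irf1, Irf5 and Irf8), where 20.9% of all genes had one. DESeq2 called 878 genes but no member, with Irf8 (adjusted p = 0.0506) and Irf1 (0.0631) just over the threshold. The groups did not overlap for 4 members, Irf2, Irf7, Irf8 and Irf9, all lower in Gsdmd-/-, where 27.9% of all genes did not overlap, 14.1% with lower and 13.8% with higher values. The median log2 fold change was -0.71 over the members and -0.00066 over all genes. This comparison shares the PIL libraries with the one above, so libraries that stand high in PIL weigh on both.

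The values of the members ranged from -1.89 for Irf7 (95% interval -3.98 to 0.19, adjusted p = 0.267) to -0.16 for Irf2 (-0.45 to 0.14, 0.467). Irf7 was below the lowest PIL library in each Gsdmd-/- library, with 20.2 CPM as the highest there and 26.8 CPM as the lowest in PIL. Irf8 had -0.65 (SE 0.19, 95% interval -1.08 to -0.22, adjusted p = 0.155), with 30.7 CPM as the highest in Gsdmd-/- and 34.5 CPM as the lowest in PIL. Irf9 had -0.77 (SE 0.36, adjusted p = 0.249), and Irf1 had -0.98 (SE 0.33, 0.178). For Irf4 the value was -1.71 (SE 0.84, adjusted p = 0.268), for Irf5 -0.58 (SE 0.25, 0.235) and for Irf3 -0.33 (SE 0.18, 0.297). For Irf1, Irf3 and Irf5 PIL 3 lay within the Gsdmd-/- range, and for Irf4 below it.

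The choice of libraries and of tool decided how many members passed in this comparison. Without PIL 3, the PIL library nearest to the Gsdmd-/- group, 4 members were called lower and 3204 genes in all. These were Irf8 (-0.82, adjusted p = 0.0124), Irf5 (-0.81, 0.0226), Irf1 (-1.23, 0.0230) and Irf4 (-2.19, 0.0461). Without PIL 1, the library with the highest PIL value of every member, edgeR called no member, and the values were -0.48 for Irf1 (adjusted p = 0.514), -0.39 for Irf8 (0.395), -0.33 for Irf5 (0.674), -0.20 for Irf3 (0.732) and -1.07 for Irf4 (0.721). With limma-voom and sample quality weights 7 members were called lower, all but Irf2, among 6448 genes.

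Immune cell transcripts had lower values in the same comparison. All 13 macrophage markers had negative values, with a median of -2.18, and none was called (Cd68 -2.33, adjusted p = 0.127). Medians were -0.98 for 7 IRF8 targets, -1.07 for 13 partners, -1.01 for 31 ISGF3 targets, -1.16 for 18 IRF1 or IRF2 targets and -0.30 for 25 upstream sensors and kinases, with no gene called in any list. The 18 targets include Gsdmd itself, whose lower value the genotype sets. Zbp1, a sensor of Z-form nucleic acids and an ISGF3 target, had 19.6, 12.2 and 5.49 CPM in PIL and 1.44, 1.44 and 1.74 CPM in Gsdmd-/- (-3.01, adjusted p = 0.127). Ciita had 32.6, 13.7 and 13.2 CPM in PIL and 6.93, 4.47 and 4.75 CPM in Gsdmd-/- (-1.88, 0.127). Kidney tubule sums were 12612 to 12771 CPM in Gsdmd-/-, above PIL 1 and PIL 2 and below PIL 3. The part of cell composition in the lower IRF values was not tested.

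Compared with saline WT kidneys, the Gsdmd-/- group also had no member called, with 3.01% of all genes called, 1.55% higher and 1.46% lower in Gsdmd-/-. The groups did not overlap for 3 members, against 24.8% of all genes. Irf7 (log2 -2.94, SE 0.96, 95% interval -5.10 to -0.79, adjusted p = 0.172) and Irf9 (-0.996, SE 0.36, 0.218) were below every Con library. Irf8 was above every Con library (0.33, SE 0.19, 95% interval -0.11 to 0.76, adjusted p = 0.509). The other members had log2 values of -0.61 for Irf1 (adjusted p = 0.466), -0.10 for Irf2 (0.819), -0.13 for Irf3 (0.835), 0.92 for Irf4 (0.737) and 0.17 for Irf5 (0.854). Unadjusted p-values were under 0.05 for 2 members (Irf7 and Irf9), as for 14.6% of all genes. Without Con 2 the value of Irf7 was -0.68 and that of Irf9 was -0.39, and without Con 3 the value of Irf4 was 2.47.

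The lists of interferon receptor and JAK-STAT genes and of negative regulators each held 1 called gene in Gsdmd-/- against Con. They were Jak2, the kinase of the interferon-γ receptor (0.56, adjusted p = 0.0369), and Irf2bp2, an IRF2-binding corepressor (0.58, 0.0271). Jak2 had 37.2, 41.6 and 35.4 CPM in Con and 51.8, 55.2 and 61.6 CPM in Gsdmd-/-, and Irf2bp2 had 58.1, 63.2 and 54.7 CPM in Con and 89.4, 94.5 and 78.4 CPM in Gsdmd-/-. Neither pair of groups overlapped. ISGF3 targets had a median of -1.37 with 29 of 31 values negative and none called, and the 7 IRF8 targets had a median of 0.02.

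By the median over members, spread was widest among the PIL libraries and narrowest among the Gsdmd-/- libraries. The coefficient of variation over 3 libraries had a median over members of 19.8% in Con, 32.6% in PIL and 12.5% in Gsdmd-/-, beside 15.5%, 19.4% and 8.99% for all genes. It ran from 2.81% for Irf2 in Gsdmd-/- to 137% for Irf7 in Con. All 8 members had PIL 1 highest and PIL 3 lowest within PIL, as 32.2% of all genes did. Over all 9 libraries 6 members were highest in PIL 1 (28.9% of all genes) and Irf7 and Irf9 in Con 2.

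Members were compared with each other over the 9 libraries by Pearson's r of log2 CPM, as a description, since the points share groups, depth and the libraries that stand apart. Irf7 and Irf9 followed each other closely (r = 0.97, Spearman's rho 0.97), and still did without Con 2 (r = 0.93, 8 libraries) or without PIL 1 (0.97). Irf8 went with Irf5 (0.85) and Irf4 (0.80), and Irf4 with Irf5 (0.78). Without PIL 1 these values were 0.65, 0.67 and 0.62. Spearman's rho of the same pairs over all 9 libraries was lower than r, at 0.57, 0.60 and 0.60. Irf1 went with Irf3 (0.85, and 0.72 without PIL 1). Irf2 went with Irf7 (0.89, 0.94 without PIL 1 and 0.85 without Con 2) and with Irf9 (0.87, 0.88 and 0.80), and with Irf3 (0.84). Spearman's rho of Irf2 was 0.65 with Irf7, 0.70 with Irf9 and 0.73 with Irf3, and that of Irf1 with Irf3 was 0.83. Between the pair Irf7 and Irf9 and the group of Irf4, Irf5 and Irf8 r was -0.16 to 0.25, but this rested on Con 2. Without that library Irf7 had r = 0.76 with Irf8 and 0.88 with Irf5.

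**Figure D4:**
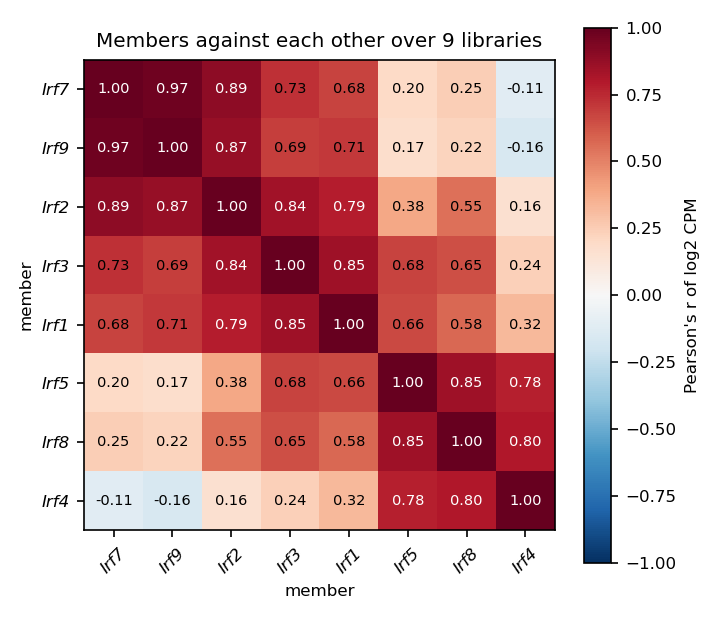
Pearson's r of log2 CPM between members over 9 libraries, ordered so that similar members are neighbours. Irf7 and Irf9 (0.97) form one dark corner and Irf5, Irf8 and Irf4 (0.78 to 0.85) the other, with Irf4 against Irf9 at -0.16.

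Across all genes tested, those most like Irf7 were Isg15, Rtp4 and Bst2, each with r = 0.99 over 9 libraries. Irf9 was closest to Xaf1, Gm4951 and its complex partner Stat2 (each 0.98). Bst2, which tethers budding virus, stood at 192.8 CPM in Con 2, 5.71 times Con 1 and 8.98 times Con 3. For Irf8 the nearest genes were S100a16 (0.99), Spp1 and the ribosomal protein gene Rpl3 (both 0.98). Spp1 encodes osteopontin, and it averaged 1009 CPM in Con, 6102 CPM in PIL and 1631 CPM in Gsdmd-/-. Irf4 was closest to Naip1 (0.98), Egr3 (0.97) and Cacna1h (0.96), and Irf5 to genes that include Pdlim7 (0.97) and Slc12a9 (0.97). Irf3 lay nearest to Npdc1, Il17rc and Cnpy3 (0.98 to 0.99), Irf1 to Pelp1, Sf3b4 and the cytotoxic granule gene Nkg7 (each 0.98), and Irf2 to D8Ertd738e, Fis1 and Stx8 (0.97 to 0.98). These likenesses were not tested.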

How the data were processed

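Total kidney RNA was isolated with TRIzol and sequenced in 9 libraries. Per the labels and the study's methods, the authors used HISAT2 for alignment to mm10 and HTSeq for counting per gene (TopHat2 is named as well, and versions are not given in the sources used here). The read counts were used as deposited, with no normalization. FPKM, as the authors deposited it, expresses those counts per gene length and library size, and served only to order members within a group. Counts were filtered with filterByExpr, scaled by TMM and fitted in edgeR 4.0.16 (R 4.3.3) with the robust quasi-likelihood F-test over all 9 libraries, with 6 residual degrees of freedom. P-values were adjusted by Benjamini-Hochberg over 14069 genes and called under 0.05. CPM used TMM-scaled library sizes, log2 CPM a prior count of 2, and 95% intervals the fit's standard errors.

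The alternatives tried were a replicate block, upper-quartile and RLE scaling, at least 10 counts in every library, no filter, DESeq2 1.42.0, limma-voom 3.58.1 with sample quality weights, fits of 6 libraries, each library left out in turn and a threshold of 0.10. The fit was tested on simulated counts. Named genes were the 8 members, up to 4 genes of each list with the lowest p in a comparison, the 3 genes most correlated with each member, Gsdmd and the Y-linked genes. A gene that falls under this rule in 1 comparison may also be given in another. Markers at 0 and the interferon genes with a count were named after their values were seen. The members and the gene lists were chosen with earlier results of these data known. Lists are described by counts and medians, with no test over a list. The markers of T and NK cells, neutrophils, lymph node and perirenal fat were counted in the same way and are given in the closing section. Some genes that the rule would name are not reported here.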

Additional observations from a re-analysis of the deposited data

How the results depend on the processing

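Among the refitted fold changes of members 376 kept their direction and their side of the threshold, 18 passed it only under the alternative, 4 lost it and 7 turned sign. The 4 lost calls are those of Irf8 given above. In PIL against Con the number of members called, 1, was 2 with DESeq2, 3 with limma-voom, 0 with only 6 libraries, 3 at a threshold of 0.10 and 0 to 3 when each library was left out. All genes called, 1072, were 2285 with DESeq2, 6271 with limma-voom, 130 with 6 libraries, 2281 at 0.10 and 226 to 3684 with a library left out. In Gsdmd-/- against PIL the members called, 0, were 7 with limma-voom and 0 to 4 with a library left out, and all genes, 0, were 878 with DESeq2, 6448 with limma-voom, 1 with 6 libraries and 0 to 3204 with a library left out. In Gsdmd-/- against Con the members called, 0, were 2 with limma-voom, Irf1 lower (-0.66) and Irf8 higher (0.38), and all genes, 423, were 909 with DESeq2, 2202 with limma-voom, 766 with 6 libraries, 675 at 0.10 and 105 to 705 with a library left out. Signs turned for Irf7 in PIL against Con with limma-voom (0.67) and without Con 2 (1.21), for Irf9 without Con 2 (0.38), for Irf1 without PIL 1 (-0.14), for Irf2 without Con 1 (-0.00062) and without PIL 1 (-0.027), and for Irf2 in Gsdmd-/- against Con without Con 2 (0.0034). With each library left out the range in PIL against Con was -1.55 to 1.21 for Irf7, -0.48 to 0.38 for Irf9, -0.14 to 0.62 for Irf1 and -0.027 to 0.15 for Irf2, and in Gsdmd-/- against Con -0.15 to 0.0034 for Irf2. The cause of these changes was not tested. Scaling by RLE or upper quartile moved the median of all genes by less than 0.1.

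Libraries with the same number in different groups deviated together with r of -0.14 to 0.29, and those with different numbers with r of -0.34 to 0.25. With 3 libraries in each group these values cannot settle whether the numbers pair the libraries, and the main fit left them unpaired. With the replicate block the members called stayed at 1, 0 and 0, all genes called were 962, 3 and 347, and Irf8 had an adjusted p of 0.0283 in PIL against Con. Duplicate libraries were not found, since replicates differed by 8.10 to 148 times counting error (chi-square per degree of freedom). Depth limits Irf4, with 4 counts in Con 2, and the interferon genes.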

Other observations

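Summed T and NK cell markers were 10.2 to 30.6 CPM in Con, 23.2 to 72.3 CPM in PIL and 7.50 to 13.9 CPM in Gsdmd-/-, neutrophil markers 5.76 to 43.5 CPM, 14.4 to 96.7 CPM and 6.31 to 11.4 CPM, and lymph node and follicle markers 2.87 to 3.58 CPM, 7.06 to 41.6 CPM and 6.59 to 7.90 CPM. The lymph node and follicle sum in PIL was mostly Cxcl13, with 5.94, 39.9 and 10.0 CPM in PIL 1, 2 and 3. Cr2, also tested, had a negative log2 fold change in PIL against Con (-0.37, edgeR adjusted p = 0.632), and Ccl21a had no count in any library. Perirenal fat markers were 0.30 to 65.3 CPM in Con and at most 6.36 CPM in the other groups.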
